A study of Mus musculus with 4 samples.

Results

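The enzymes described here import long-chain fatty acids into mitochondria and break them down by beta oxidation. They are Cpt1a, Cpt2, Acadl, Acadm, Acadvl, Hadh, Hadha, Hadhb and the pyruvate dehydrogenase kinase gene Pdk4. They were chosen by symbol with earlier results of these data known, and every probe set annotated to exactly one of these symbols was taken. This gave 17 probe sets for 9 genes, out of 34945 probe sets for 18193 genes. The arrays held RNA from mouse bone marrow cells that had been turned into dendritic cells with GM-CSF, a myeloid growth factor, and selected on beads for the surface integrin CD11c, all of strain C57/BL6 per the labels. The 4 groups were LXR-DKO LPS, LXR-DKO control, WT LPS and WT control, with 1 array each. LXR-DKO cells lacked both LXRalpha and LXRbeta, the oxysterol-activated nuclear receptors, and WT cells had both. All 4 cultures received GM-CSF at 10 ng/mL for 24 h. The LPS cultures also received lipopolysaccharide, a bacterial stimulus that makes dendritic cells mature, at 100 ng/mL. The deletion was combined for both receptors, so neither receptor can be considered alone. How many mice gave each culture is not given in the sources used here.

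Long-chain fatty acids are activated to acyl-CoA outside the mitochondrial matrix and cross the inner membrane as carnitine esters. Inside, each turn of beta oxidation runs through an acyl-CoA dehydrogenase, a hydratase, a hydroxyacyl-CoA dehydrogenase and a thiolase, and yields acetyl-CoA and reduced electron carriers. In dendritic cells, LPS is known to shift energy supply towards glycolysis, while oxidation of fatty acids is associated with the immature and tolerogenic states. Several of these genes are known targets of PPAR nuclear receptors, which share the partner RXR with LXRs.

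With 1 array per group no difference has a replicate check and no p-value was computed. The values are signals, the linear brightness of a probe set after the authors' scaling, and the number of arrays limits their precision. A signal below 28.9, the median over all probe sets and arrays, was treated as not measurable and is called below the floor. The only error available is the probe set spread, the standard deviation of log2 ratios among different probe sets of 1 gene, pooled over genes. It was 0.54 for LXR-DKO over WT with LPS, 0.45 without LPS, 0.42 for the LPS response in LXR-DKO and 0.29 in WT, and it does not cover variation between cultures. A difference between bulk cultures does not separate fewer cells of a type from less RNA per cell, which cannot be told apart here.

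The trimmed mean was 200.0 on every array, and the share of probe sets at or above the floor lay between 47.8% and 52.6%. Nr1h3, which encodes LXRalpha, had signals of 27.0 in LXR-DKO LPS against 54.5 in WT LPS, and of 40.4 in LXR-DKO control against 108.6 in WT control. Whether its probe set lies in the deleted part is not known here, and Nr1h2 was not analysed here. Itgax, which encodes CD11c itself, was lower in LXR-DKO, at 3848.1 in LXR-DKO LPS against 6093.0 in WT LPS. Without LPS it had 4404.5 in LXR-DKO control against 5012.2 in WT control. It belongs to the list of conventional dendritic cell markers and was its only measured gene below WT in each condition. Of the 10 markers of conventional dendritic cells, 10 reached the floor in LXR-DKO LPS and 9 in LXR-DKO control, against 7 in WT LPS and 8 in WT control. Their summed signal was 39050.5 in LXR-DKO LPS against 19778.3 in WT LPS, and 40790.5 in LXR-DKO control against 21781.9 in WT control. The antigen presentation gene Cd74 was bright on every array, between 7438.2 and 10329.7, the transcription factor gene Zbtb46 had signals of 393.3 in LXR-DKO LPS against 29.0 in WT LPS, and Flt3 was below the floor on all arrays but LXR-DKO LPS. Markers of other cell types moved with genotype. The summed signal of 8 neutrophil and granulocyte precursor markers was 23504.6 in LXR-DKO LPS against 3181.4 in WT LPS, and 19038.9 in LXR-DKO control against 1870.1 in WT control. All 8 reached the floor on each LXR-DKO array, against 3 in WT LPS and 4 in WT control. The sum of 8 macrophage and monocyte markers was 18693.3 in LXR-DKO LPS against 17124.3 in WT LPS, and 28560.3 in LXR-DKO control against 14391.9 in WT control. Its members went both ways: the complement gene C1qa had 2680.3 in LXR-DKO LPS against 1.5 in WT LPS, and the lysosomal gene Cd68 had 2139.2 in LXR-DKO LPS against 8902.7 in WT LPS. The sum of 6 mast cell, basophil and eosinophil markers was 1957.6 in LXR-DKO LPS against 165.9 in WT LPS, and 1382.6 in LXR-DKO control against 337.5 in WT control. That of 4 B cell markers was 1707.1 in LXR-DKO LPS against 71.6 in WT LPS, and 491.5 in LXR-DKO control against 88.4 in WT control. The part of these cells in the genotype differences below was not tested. The ratio of the 3′ to the 5′ probe set of the Gapdh control, a sign of RNA quality, lay between 0.76 and 0.84 on all arrays. That of the actin control was 1.28 in LXR-DKO LPS and 1.26 in WT LPS, against 1.14 in LXR-DKO control and 1.11 in WT control, so it moved with LPS, and its part in the LPS responses was not tested.

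By the brightest probe sets the members as a list were lower in LXR-DKO than in WT cells. Cpt1a, Cpt2 and Hadh lay furthest down. Of the 9 genes, 8 reached the floor on all 4 arrays and Pdk4 on none. With LPS, Cpt1a and Hadh, 2 of the 8 measured members, lay at least 2-fold lower in LXR-DKO and 0 lay at least 2-fold higher, where 8.76% and 17.8% of 12014 measured genes did. The probe set of Hadh without a suffix for shared targets gave only -0.23 on the log2 scale with LPS and -0.19 without. Without LPS, 0 of 8 were at least 2-fold lower or higher, against 9.28% and 12.7% of 11728 genes. The median log2 ratio of the measured members was -0.51 with LPS and -0.32 without, against 0.152 and 0.045 over all measured genes. In each condition 7 of the 8 had a log2 ratio below 0, against 41.7% of all genes with LPS and 47.3% without. The same 7, all measured members but Acadvl, were below 0 in both conditions, a share of 87.5%, against 35.7% of the 10566 genes measured in every comparison. Because the members were chosen with earlier results of these data known, these shares describe the list and are no test of it. The medians stayed below 0 under every scaling tried, and lay between -0.81 and -0.24 with LPS and between -0.51 and -0.12 without over all settings, although the single ratios of Acadvl, Hadha and Hadhb with LPS changed sign with the scaling. Scaling to the same 75th percentile lowered the median ratio of genes above the floor with LPS to -0.17, against 0.13 as deposited, and scaling to hybridisation controls raised it to 0.40. Relative to that median of all genes, the members' median with LPS was -0.64 as deposited and -0.31 after quantile normalization. Scaling a whole array shifts the members and all genes by the same amount. The -0.64 under the 75th percentile and hybridisation control scalings was therefore fixed in advance and is no check.

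**Figure D1:**
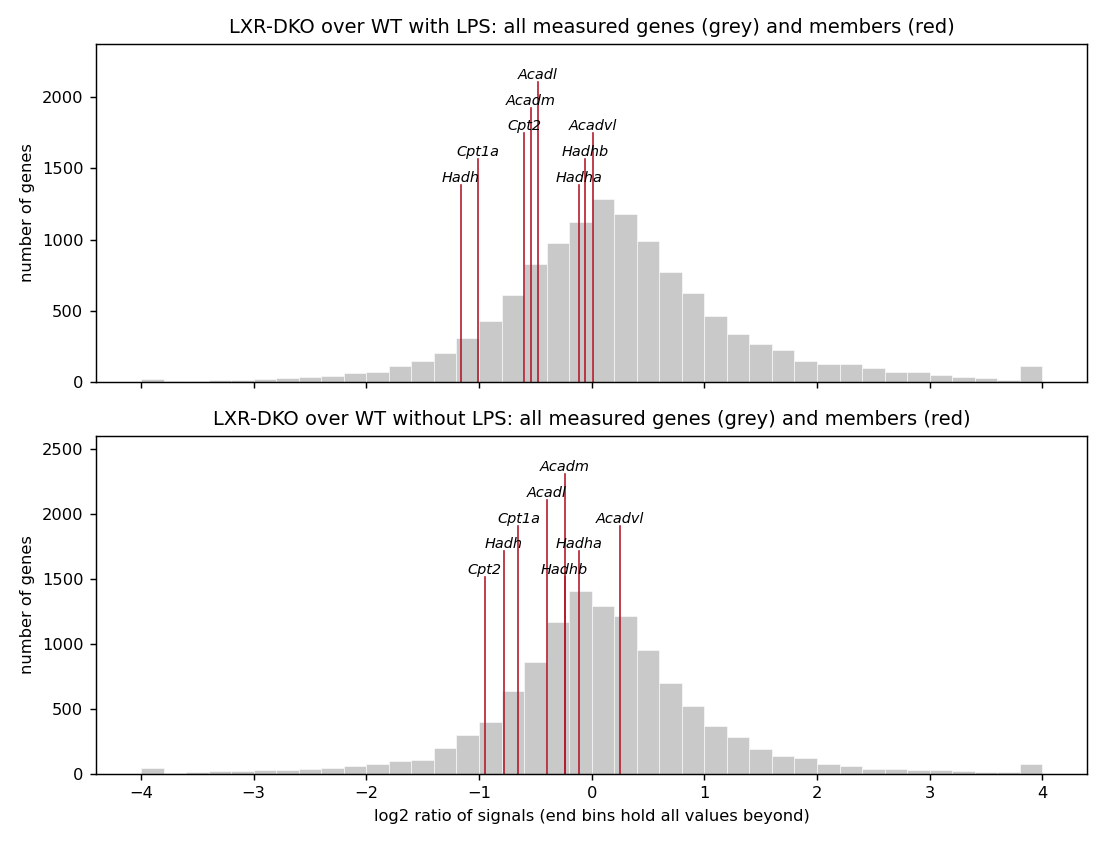
Number of genes (vertical axis) by log2 ratio of LXR-DKO over WT (horizontal axis), with LPS above and without LPS below; grey bars are all measured genes and red lines the 8 measured members. Hadh at -1.16 and Cpt1a at -1.01 lie furthest left with LPS, Cpt2 at -0.95 without LPS, and Acadvl is the one member right of 0 in each panel. Genes are shown by their brightest probe sets, and the Hadh one without a suffix for shared targets gave -0.23 with LPS.

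Cpt1a encodes carnitine palmitoyltransferase 1A of the outer mitochondrial membrane, the rate-controlling step of import that malonyl-CoA inhibits. Its brightest probe set had signals of 598.7 in LXR-DKO LPS and 792.1 in LXR-DKO control, against 1208.2 in WT LPS and 1239.6 in WT control. The LXR-DKO arrays were thus both below both WT arrays. How many of all genes separate in this way was not counted, so for this and other members it is a description only. On the log2 scale the ratio to WT was -1.01 with LPS, a 2.02-fold lower signal, and -0.65 without LPS, a 1.56-fold lower signal. Only 8.6% of measured genes had a lower ratio than Cpt1a with LPS, and 16.7% had one without. Both ratios were larger than the probe set spread. The other probe sets of Cpt1a gave larger differences in the same direction, but both carry the suffix for shared targets. One had signals of 102.5 in LXR-DKO LPS and 161.4 in LXR-DKO control, against 335.9 in WT LPS and 295.1 in WT control, with log2 ratios of -1.71 and -0.87. The other had 47.8 in LXR-DKO LPS and 65.3 in LXR-DKO control, against 150.7 in WT LPS and 178.4 in WT control, with log2 ratios of -1.66 and -1.45. All 3 probe sets of Cpt1a thus lay beyond the spread in both conditions, and the brightest is the one without a suffix. In order of level, LXR-DKO LPS was lowest, then LXR-DKO control, WT LPS and WT control by the brightest probe set, and the WT neighbours, at a log2 difference of -0.04, did not differ beyond their spread.

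**Figure D2:**
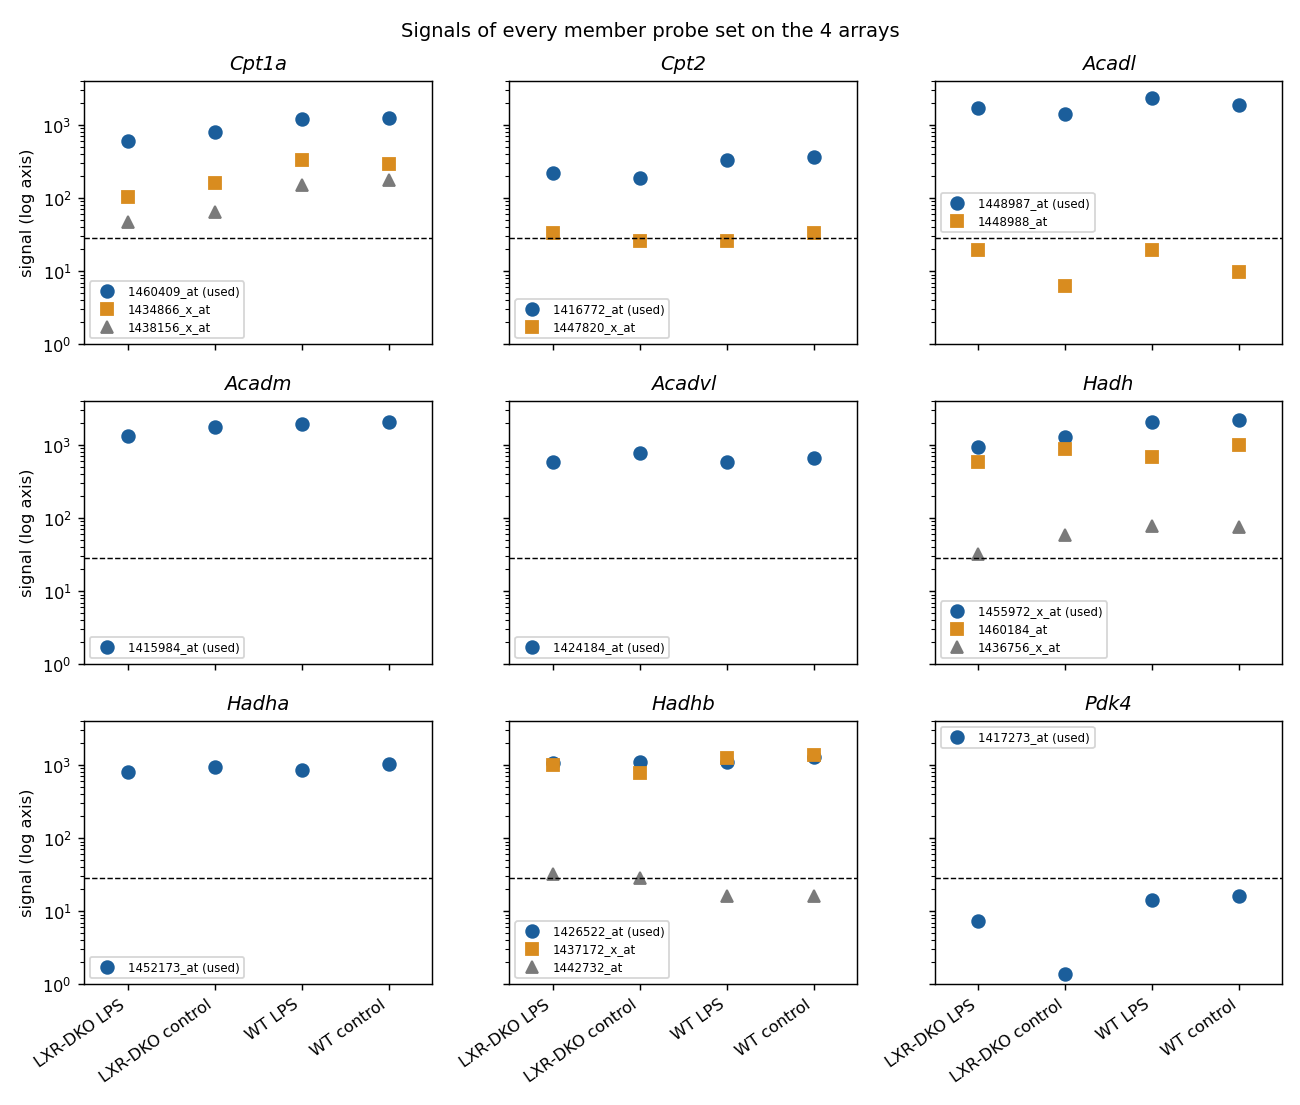
Signal on a log axis for every probe set of the 9 genes on the 4 arrays, with 1 point per array, the brightest probe set in blue and the floor of 28.9 as a dashed line. All 3 probe sets of Cpt1a lie lower on the LXR-DKO arrays, while Pdk4 lies below the floor on all 4.

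The promoter of Cpt1a is shown because all probe sets of Cpt1a were lower in LXR-DKO. The window covers 250 bases before to 50 bases after the RefSeq start, at chr19:3323051-3323350 of GRCm38.p6 on the plus strand. RefSeq windows were found for all 9 genes and searched on both strands for AGGTCA, the half-site bound by PPAR, RXR and LXR receptors. Capitals mark each match, which reads TGACCT where it lies on the opposite strand.
Cpt1a: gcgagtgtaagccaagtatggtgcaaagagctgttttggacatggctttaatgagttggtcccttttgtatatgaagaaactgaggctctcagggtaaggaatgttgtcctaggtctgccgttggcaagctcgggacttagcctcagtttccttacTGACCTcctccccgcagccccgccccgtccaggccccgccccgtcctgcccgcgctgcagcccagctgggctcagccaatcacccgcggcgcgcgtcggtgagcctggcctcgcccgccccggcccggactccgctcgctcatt
The half-site was present once in the windows of 3 of the 9 members, Cpt1a, Acadm and Acadvl, and in 16.3% of the 32851 windows of all genes. It does not sort the members by their genotype difference, since Cpt1a was lower in LXR-DKO and Acadvl was not. A pair of AGGTCA copies in the same direction, 1 base apart as preferred by PPAR with RXR or 4 bases apart as preferred by LXR with RXR, had no match in any member's window. These repeats were found in 0.0396% and 0.0152% of all windows. TNAAGGTCA, the extended half-site of oestrogen-related receptors, had no match among the members and was found in 1.28% of windows. AGGTCA forms part of each of the longer motifs. A match or its lack in so short a window describes these letters only.

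Cpt2 encodes the inner membrane enzyme that turns the imported carnitine esters back into acyl-CoA. Its signals were 218.7 in LXR-DKO LPS and 189.6 in LXR-DKO control, against 332.3 in WT LPS and 366.7 in WT control. Here too each LXR-DKO signal lay below each WT signal. The ratio to WT on the log2 scale was -0.60 with LPS and -0.95 without LPS, which is 1.52-fold and 1.93-fold lower and in each case beyond the probe set spread. Among all measured genes, 17.4% had a lower ratio with LPS and 9.9% without. The other probe set of Cpt2 lay at the edge of the floor, at 33.3 in LXR-DKO LPS, 26.0 in LXR-DKO control, 25.9 in WT LPS and 33.6 in WT control, and carries little information on direction.

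The acyl-CoA dehydrogenases, which begin each turn of beta oxidation, are named for the chain lengths they prefer, and they did not go the same way. Acadl, for long chains, had signals of 1691.6 in LXR-DKO LPS and 1411.6 in LXR-DKO control, against 2359.8 in WT LPS and 1866.6 in WT control. Its log2 ratios of -0.48 with LPS and -0.40 without were within the probe set spread. Acadm, for medium chains, had signals of 1330.6 in LXR-DKO LPS and 1751.7 in LXR-DKO control, against 1938.2 in WT LPS and 2069.2 in WT control. Its log2 ratio with LPS was -0.54, level with the spread of 0.54, and -0.24 without LPS, within it. For Acadl and for Acadm each LXR-DKO signal lay below each WT signal. Acadvl, for very long chains, had signals of 583.9 in LXR-DKO LPS and 782.4 in LXR-DKO control, against 579.2 in WT LPS and 659.2 in WT control. The genotypes overlapped for Acadvl, and its log2 ratios of 0.01 with LPS and 0.25 without were within the spread. A second probe set of Acadl was below the floor on all 4 arrays, with at most 19.8.

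The promoter windows of Acadm and Acadvl are shown because they hold the half-site and belong to dehydrogenases with different genotype ratios. That of Acadm is chr3:153944594-153944893 on the minus strand and that of Acadvl chr11:70015379-70015678 on the minus strand, in GRCm38.p6, with the half-site in capitals.
Acadm: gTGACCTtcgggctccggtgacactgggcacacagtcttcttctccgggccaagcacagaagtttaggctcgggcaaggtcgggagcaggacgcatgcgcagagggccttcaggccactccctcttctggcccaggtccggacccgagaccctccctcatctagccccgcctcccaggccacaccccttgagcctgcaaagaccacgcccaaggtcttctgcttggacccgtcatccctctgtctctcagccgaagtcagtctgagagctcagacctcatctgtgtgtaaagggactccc
Acadvl: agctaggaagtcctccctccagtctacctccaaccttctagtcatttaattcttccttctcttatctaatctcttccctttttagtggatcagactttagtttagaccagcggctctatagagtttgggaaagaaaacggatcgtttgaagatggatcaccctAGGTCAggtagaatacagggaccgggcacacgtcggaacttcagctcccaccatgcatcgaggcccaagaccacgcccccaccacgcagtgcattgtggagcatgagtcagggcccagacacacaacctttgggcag
The match in Acadm begins 249 bases before the start and lies on the opposite strand. That of Cpt1a begins 94 bases before the start, also on the strand opposite to its gene. That of Acadvl begins 87 bases before the start, on the strand of its gene.

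Hadh encodes the matrix hydroxyacyl-CoA dehydrogenase for short and medium chains. Its brightest probe set had signals of 935.2 in LXR-DKO LPS and 1279.4 in LXR-DKO control, against 2096.1 in WT LPS and 2200.3 in WT control. By this probe set Hadh had the lowest ratio of all members with LPS, a log2 ratio of -1.16 or 2.24-fold lower, and -0.78 or 1.72-fold lower without LPS. Its probe sets disagreed in size. The one without a suffix for shared targets had signals of 595.4 in LXR-DKO LPS and 878.0 in LXR-DKO control, against 697.0 in WT LPS and 998.5 in WT control. The log2 ratios there were -0.23 with LPS and -0.19 without, within the spread, so that the 2-fold difference of Hadh rests on probe sets that may bind shared sequences. The remaining one, near the floor in LXR-DKO LPS at 32.2 and at 57.9 in LXR-DKO control, against 77.2 in WT LPS and 74.7 in WT control, gave -1.26 and -0.37. All 3 probe sets were lower in LXR-DKO in each condition.

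**Figure D3:**
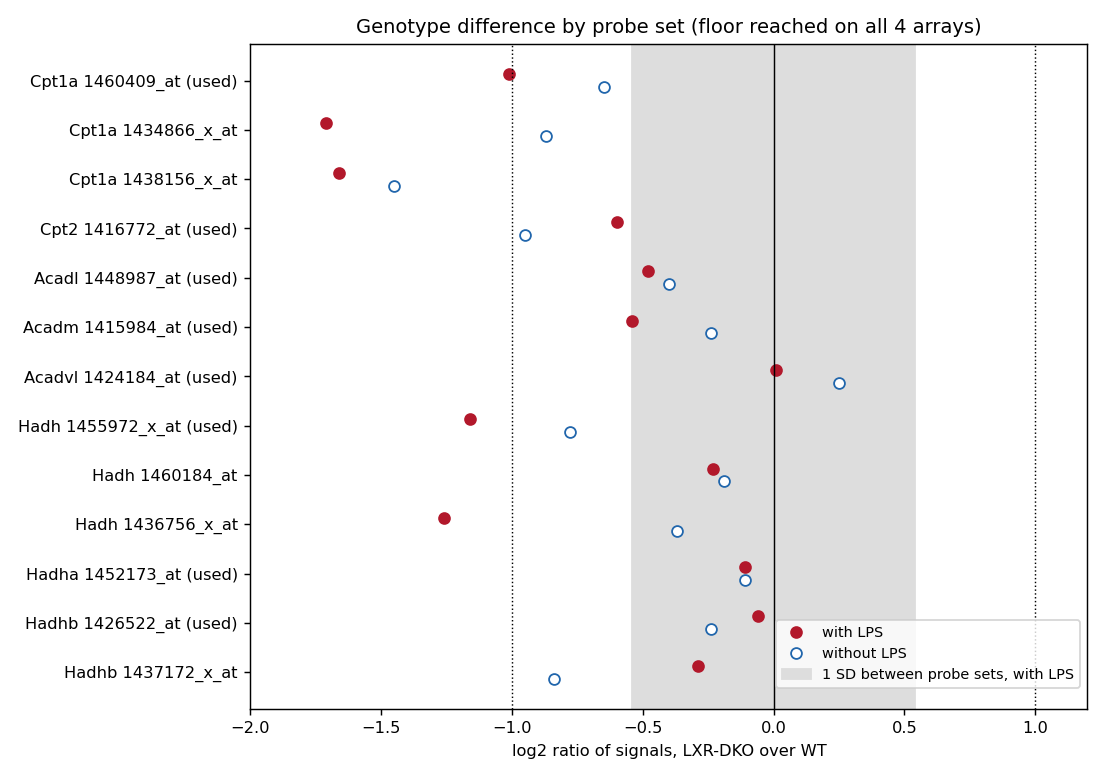
Log2 ratio of LXR-DKO over WT (horizontal axis) for the 13 member probe sets that reached the floor on all 4 arrays, with filled points for LPS and open points for no LPS; dotted lines mark 2-fold and the grey band the probe set spread with LPS of 0.54. All 3 probe sets of Cpt1a lie left of the band with LPS, whereas one of the 3 of Hadh lies inside it at -0.23.

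Hadha and Hadhb encode the alpha and beta subunits of the mitochondrial trifunctional protein, which carries the later steps of beta oxidation for long chains. By the brightest probe sets they had the smallest range of the members over the 4 arrays, at 0.35 and 0.27 on the log2 scale, against 1.05 for Cpt1a and 0.95 for Cpt2. The second probe set of Hadhb had a range of 0.84. Hadha had signals of 803.5 in LXR-DKO LPS and 947.2 in LXR-DKO control, against 865.7 in WT LPS and 1023.0 in WT control, a log2 ratio of -0.11 in each condition. Hadhb had signals of 1075.3 in LXR-DKO LPS and 1095.0 in LXR-DKO control, against 1117.5 in WT LPS and 1292.9 in WT control, with log2 ratios of -0.06 with LPS and -0.24 without. All 4 ratios were within the spread. A second probe set of Hadhb, with 1012.7 in LXR-DKO LPS and 778.7 in LXR-DKO control, against 1236.6 in WT LPS and 1392.1 in WT control, gave -0.29 with LPS and -0.84 without. The larger difference without LPS was therefore not shared by the brightest probe set. The remaining one reached the floor only in LXR-DKO LPS, at 32.6, and was at most 28.2 on the other arrays.

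The shared promoter of these subunit genes is shown because they are transcribed away from each other from neighbouring starts. In GRCm38.p6, 272 bases separate the RefSeq starts, and 228 bases of the 300 in each window are common to both. The window of Hadhb at chr5:30155003-30155302 on the plus strand follows, with the stretch that is also in the window of Hadha on the opposite strand in capitals.
Hadhb: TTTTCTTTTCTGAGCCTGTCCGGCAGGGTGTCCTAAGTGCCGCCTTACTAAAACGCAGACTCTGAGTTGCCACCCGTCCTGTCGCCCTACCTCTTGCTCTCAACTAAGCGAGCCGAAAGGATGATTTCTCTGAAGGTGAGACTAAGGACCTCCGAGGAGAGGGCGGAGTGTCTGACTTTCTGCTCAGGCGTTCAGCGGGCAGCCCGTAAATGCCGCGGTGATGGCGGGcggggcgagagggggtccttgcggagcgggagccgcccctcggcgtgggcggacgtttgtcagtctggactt
No half-site was found in the window of either gene.

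Pdk4 encodes the kinase that switches off pyruvate dehydrogenase, so that fatty acids rather than pyruvate supply acetyl-CoA. Its single probe set had signals of 7.4 in LXR-DKO LPS, 1.4 in LXR-DKO control, 14.4 in WT LPS and 16.2 in WT control. All of them were below the floor, and no ratio was taken.

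The LPS response of the members was small in each genotype. In LXR-DKO cells 0 of 8 measured members passed 2-fold in the lower or the higher direction with LPS, against 1.82% and 6.23% of 11793 genes. In WT cells 0 of 8 were, against 4.79% and 2.93% of 11449 genes. The median log2 ratio of LPS over control was -0.32 in LXR-DKO and -0.12 in WT, against 0.018 and -0.054 over all measured genes. The WT median was 0.02 under scaling to an equal 75th percentile. Members below 0 numbered 6 of 8 in LXR-DKO, against 48.4% of all genes, and 7 of 8 in WT, against 56.0%. In LXR-DKO the lowest were Hadh at -0.45, Acadvl at -0.42, and Cpt1a and Acadm at -0.40 each. Only the first 2 of these reached the probe set spread of 0.42. In WT the same genes stood at -0.07, -0.19, -0.04 and -0.09. These are values of the brightest probe sets. The Hadh probe set without a suffix gave -0.56 in LXR-DKO and -0.52 in WT, each beyond the spread of its comparison. Acadl was above 0 in each genotype, at 0.26 in LXR-DKO and 0.34 in WT, and the WT value exceeded its spread of 0.29. The genotype comparisons share their arrays with the LPS comparisons, so these values are not independent of each other. Of 6 markers of dendritic cell maturation by LPS, 6 rose at least 2-fold with LPS in LXR-DKO and 3 in WT. Their summed signal was 26624.5 in LXR-DKO LPS and 6532.7 in LXR-DKO control, against 4747.9 in WT LPS and 1468.5 in WT control. Ccr7 stood at 2.45 in LXR-DKO and 0.19 in WT, and Il6 at 7.39 and 6.59. The part of maturation state in the differences described here was not tested.

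The difference of the log2 responses, LXR-DKO minus WT, lay within its probe set spread of 0.43 for the brightest probe set of all 8 measured members. It ranged between -0.38 for Hadh and 0.35 for Cpt2, with a median of -0.16 against 0.088 over 10764 genes, and 5 of 8 members lay below 0, against 41.9% of genes. At least 2-fold lower or higher were 0 of 8, against 1.99% and 7.69% of those genes. For Cpt1a the difference was -0.37 by the brightest probe set and -0.84 and -0.21 by the others. A dim probe set of Hadh gave -0.89 and the second one of Hadhb 0.55, so these genes' probe sets lay on either side of the spread. Cpt1a and Cpt2 thus differed in level between the genotypes by more than the spread in each condition, whereas their responses to LPS by the brightest probe sets did not. The share of all genes beyond the spread was not counted, so this does not mark out these genes.

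**Figure D4:**
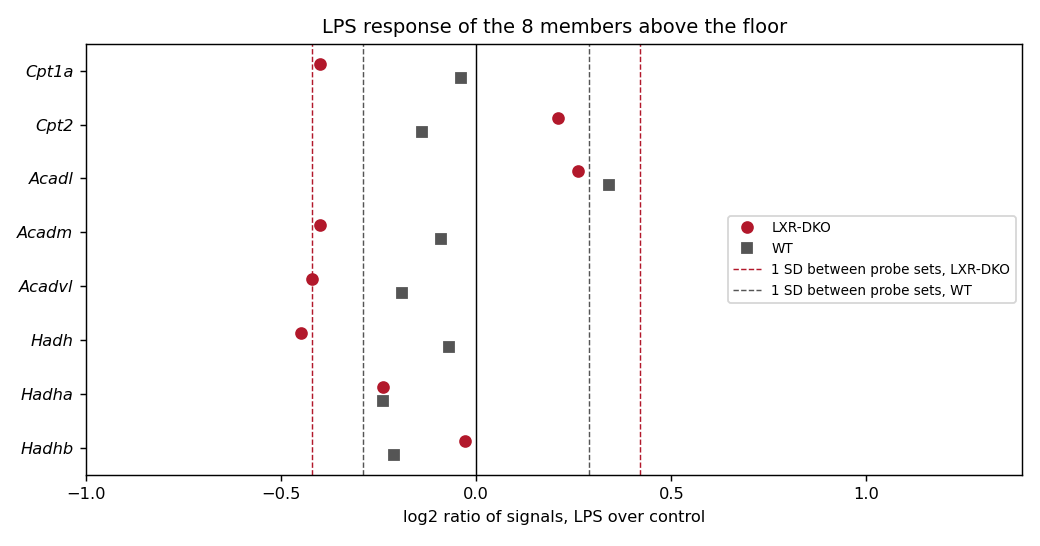
Log2 ratio of LPS over control (horizontal axis) for the brightest probe set of the 8 measured members, with red circles for LXR-DKO and grey squares for WT; dashed lines mark the probe set spread of each genotype. Every point lies between -0.45 and 0.34, and Cpt2 is the one member on opposite sides of 0.

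The same comparison was made for other genes of the pathway, by lists of named genes, with no test of any list. Over all measured genes, as above, 8.76% lay at least 2-fold lower and 17.8% at least 2-fold higher in LXR-DKO with LPS. All 18 other mitochondrial beta oxidation enzymes and electron carriers were measured, and 1 was at least 2-fold lower in LXR-DKO and 1 higher with LPS. The median log2 ratio was -0.09 with LPS and -0.19 without, nearer to 0 than that of the members. Of the 18, 11 lay below 0 with LPS and 13 without. Echs1, the short-chain enoyl-CoA hydratase that acts before Hadh, stood at -1.44 with LPS and -0.55 without. Decr1, which reduces double bonds of unsaturated chains, stood at -0.73 and -1.23, but at -0.15 and -0.55 by its other probe set. Acaa2, a thiolase of the last step, stood at -0.84 and -0.58, and its other probe sets gave between -1.30 and -0.77. Acat1, which handles acetoacetyl-CoA, went the other way at 1.13 and 0.85, and its other probe sets gave between 0.81 and 1.46. The electron carrier genes Etfa and Etfb stood at -0.22 and -0.13 with LPS and at 0.13 and -0.03 without. Acads, the short-chain dehydrogenase, stood at 0.47 with LPS and 0.16 without.

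The genes that activate fatty acids and supply or carry carnitine went both ways. Of 14 genes for fatty acid activation and the carnitine shuttle, 12 had a probe set of their own and 10 were measured, of which 3 lay at least 2-fold higher in LXR-DKO with LPS and 0 lower, against the 17.8% and 8.76% of all genes, and 4 of the 10 lay below 0. Slc27a3 and Cpt1c, among the 3, were below the floor in WT, so they counted as measured only through LXR-DKO and could only come out higher. The list had a median of 0.52 with LPS and 0.43 without. Acsl4 stood at -0.28 with LPS and 0.21 without, whereas its other probe sets gave -2.14 and -1.31 with LPS and -0.36 and -0.75 without. The acyl-CoA synthetase gene Acsl3 stood at 1.27 with LPS and 1.19 without, or at 0.84 and 0.76 by its other probe set. Cpt1c, the brain-type relative of Cpt1a, stood at least at 2.02 with LPS, since it was below the floor in WT, with signals of 117.5 in LXR-DKO LPS against 11.4 in WT LPS. Slc25a20, the carnitine-acylcarnitine exchanger between both transferases, stood at -0.31 and -0.65, and its other probe set gave -0.37 and -0.66. Slc22a5, the carnitine transporter of the cell surface, stood at -0.64 with LPS and 0.16 without, whereas its other probe set gave -0.77 and -0.47.

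Pyruvate enters the same acetyl-CoA pool through the pyruvate dehydrogenase complex, which Pdk4 would inhibit. Of 11 measured genes of this complex and its regulators, 3 were at least 2-fold lower in LXR-DKO with LPS and 2 higher. Over all genes the shares were 8.76% and 17.8%. Without LPS 0 were lower and 0 higher, against 9.28% and 12.7%. The list had a median of -0.45 with LPS and -0.35 without, near those of the members, and 8 of the 11 lay below 0 in each condition. Pdhb, the E1 beta subunit, had signals of 1172.9 in LXR-DKO LPS against 2517.3 in WT LPS, a log2 ratio of -1.10, and the mitochondrial pyruvate carrier gene Mpc1 stood at -1.03. The phosphatase gene Pdp1, which counters the kinases, stood at -1.25, or at -0.80 by its other probe set. Of the kinase genes related to Pdk4, all above the floor, Pdk3 stood at 1.44 with LPS and 0.90 without, and Pdk2 at 1.14 and 0.31. The probe sets of Pdk1 disagreed, between -0.11 and 0.67 with LPS and between -0.21 and 0.82 without. Mlycd, which removes the Cpt1a inhibitor malonyl-CoA, stood at 0.19 with LPS and 1.21 without, and Acaca, which makes it, at 1.59 and 1.77. Of the 8 measured genes of malonyl-CoA control, 2 lay at least 2-fold higher in LXR-DKO with LPS and 0 lower, near the shares over all genes.

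**Figure D5:**
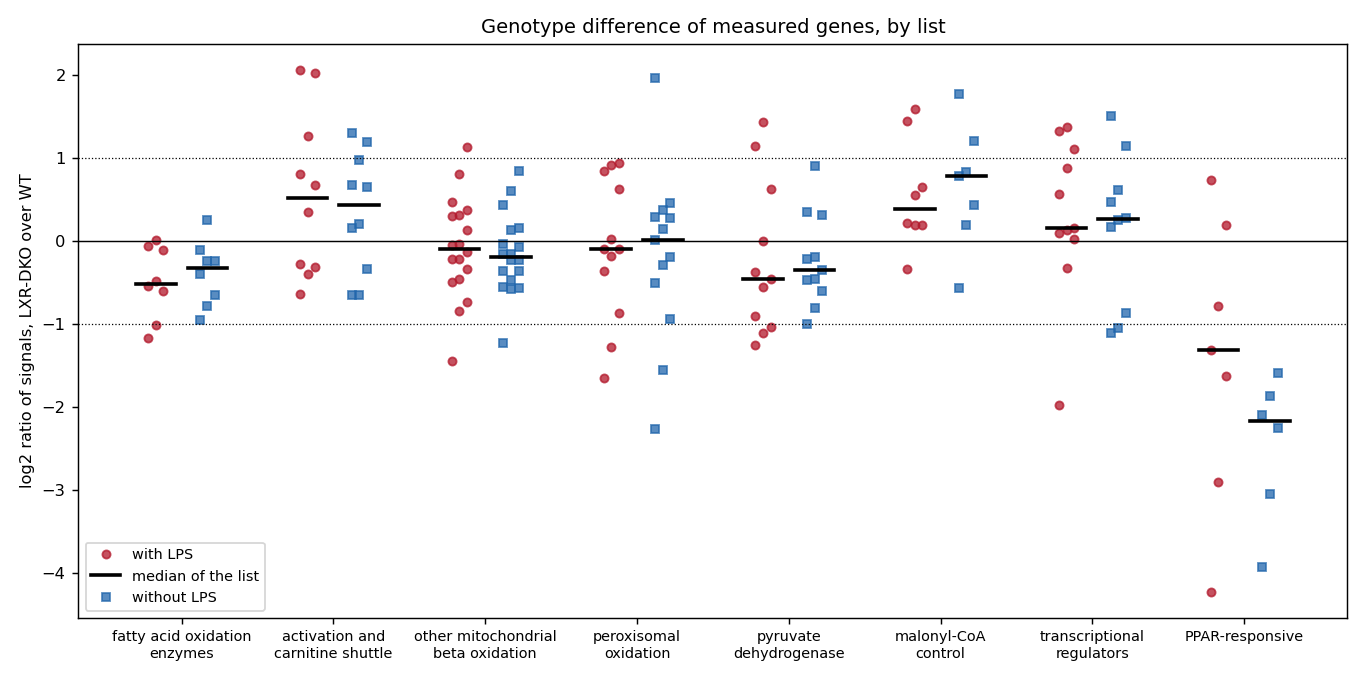
Log2 ratio of LXR-DKO over WT (vertical axis) for each measured gene of the members and of 7 other lists, with red circles for LPS, blue squares for no LPS and black bars for the list medians; dotted lines mark 2-fold, and values with a signal below the floor are lower limits on the size. The members' medians of -0.51 and -0.32 lie below those of the other mitochondrial list at -0.09 and -0.19 and above those of the PPAR-responsive list at -1.31 and -2.17. They lie near those of the pyruvate dehydrogenase list at -0.45 and -0.35.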

How the data were processed

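RNA of 4 cultures was hybridised to 1 array each. Per the labels, biotinylated cRNA was made from total RNA with a kit for small amounts. Per the submitters' processing notes, MAS5 was used, with its version and settings not given in the sources used here. The deposited values are intensity signals on a linear scale, already scaled by the authors to a trimmed mean of 200.0. Control probe sets (64 of 45101) were left out. Symbols came from the platform annotation, in which 932 probe sets had several symbols and 9160 were not listed.

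Ratios were taken in Python 3.11.15 with pandas 2.3.3. Values below the pooled median of 28.9 were set to it, which makes any ratio that uses one a minimum size. The probe set with the highest mean represented a gene, and a log2 ratio of 1 was the threshold. A gene counted as measured where 1 array of the comparison reached the floor. Counting was tested only on simulated data, with planted changes larger than those of any member and noise smaller than the probe set spread. That test is therefore no check of the member counts. Arrays, not depth, limit the precision.

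The members and lists were chosen with earlier results of these data known. The named genes were all members, up to 4 genes per list with the largest ratios and any that show both directions, and the 3 genes nearest in pattern to the member with the largest range. Slc22a5, Acaa2, Acads, Etfa, Etfb, Slc25a20, Mlycd, Mpc1, Pdk1, Ppara and the markers were named for their place in the pathway after their values were seen. Acsl4, Slc27a3, Fabp3 and Acot1 were named for other probe sets or signals below the floor, also after their values were seen. Alternatives were 8 chosen with the design and 1, scaling to hybridisation controls, added after seeing the data. Promoter sequences are RefSeq's.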

Additional observations from a re-analysis of the deposited data

Results flagged for a closer look

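Cpt2 was the one member whose brightest probe set responded to LPS with opposite sign in the 2 genotypes. Its log2 ratio of LPS over control was 0.21 in LXR-DKO and -0.14 in WT. Each value is smaller than the probe set spread of its comparison, and the difference was not tested, since each group had 1 array.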

How the results depend on the processing

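No paired analysis was possible because each group had 1 array. A median or a count of members is given where it moved by over 1.5 times or changed sign, and the cause was not tested. For LXR-DKO over WT with LPS, the median of -0.51 was -0.81 under 75th percentile scaling, -0.32 after quantile normalization and -0.24 under hybridisation control scaling. There 2 members were at least 2-fold lower as reported, against 1 after quantile normalization, without a floor and with probe sets that carry no suffix, and 0 under hybridisation control scaling, where 5 members instead of 7 lay below 0. Without LPS, the median of -0.32 was -0.51 under 75th percentile scaling and -0.12 under hybridisation control scaling, and 1 member instead of 0 was at least 2-fold lower under 75th percentile scaling and 1 after quantile normalization. For the LPS response in WT, the median of -0.12 was 0.02 under 75th percentile scaling, where 4 members instead of 7 lay below 0, -0.06 after median centring and -0.23 under hybridisation control scaling. For the difference of the responses, the median of -0.16 was -0.26 under 75th percentile scaling, -0.08 without a floor, -0.06 with probe sets that carry no suffix and -0.09 under hybridisation control scaling. The median of the LPS response in LXR-DKO lay between -0.37 and -0.23. For LXR-DKO over WT with LPS, Cpt1a gave -1.66 as the median over its probe sets. With probe sets that carry no suffix, Hadh gave -0.23 there and -0.19 without LPS, against -1.16 and -0.78 as reported. Its LPS response in WT was then -0.52, against -0.07 as reported. Pdk4 had values only with the lower floor or none. Signals near the floor limit Pdk4 and the dim probe sets of Cpt2, Acadl and Hadhb.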

Other observations

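PPAR-responsive genes outside beta oxidation had lower ratios in LXR-DKO than the members. Without LPS all 6 measured genes passed 2-fold in the lower direction, against 9.28% of all measured genes, and the median log2 ratio was -2.17. With LPS 4 of 7 did, against 8.76%, and the median was -1.31, counting ratios to the floor at their minimum size. Fabp3 and Acot1 were below the floor on both LXR-DKO arrays, with 15.3 and 26.4 in LXR-DKO control against 87.1 and 122.9 in WT control. These genes counted as measured only through WT and could only come out lower. Plin2, Cd36, Angptl4 and Fabp4 reached the floor on all 4 arrays. The lipid droplet coat gene Plin2 had signals of 2242.4 in LXR-DKO LPS against 6915.1 in WT LPS, and of 1891.8 in LXR-DKO control against 6850.4 in WT control. The fatty acid receptor gene Cd36 stood at -2.90 with LPS and -2.25 without, and the lipase inhibitor gene Angptl4 at -1.31 and -3.05. Fabp4, a fatty acid carrier, stood at -3.92 without LPS but at 0.74 with LPS. The list of receptors, coactivators and other transcriptional regulators went both ways. With LPS the median of its 11 measured genes was 0.16, and 2 had a negative ratio. Without LPS the median of 10 genes was 0.27, and 3 had a negative ratio. Ppara was below the floor on all arrays. Pparg stood at -1.04 without LPS and 0.14 with LPS, and the mitochondrial coactivator gene Ppargc1b at -1.10 and -1.97. In the same order, Rxrb stood at 1.15 and 1.37, Foxo1 at 0.26 and 1.33, and Lpin1 at 0.47 and 1.11.

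Peroxisomal oxidation had medians near 0, at -0.09 with LPS and 0.01 without, and its genes went both ways. The peroxisomal transporter gene Abcd3 had signals of 486.4 in LXR-DKO LPS against 1522.4 in WT LPS, and of 288.2 in LXR-DKO control against 1383.4 in WT control. Crot, which makes carnitine esters in peroxisomes, stood at -1.27 with LPS and -0.94 without. The oxidase gene Acox3 stood at 0.94 with LPS and 1.96 without.

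By its brightest probe set, which carries the suffix for shared targets, Hadh had the largest range of the members over the arrays, at 1.23 on the log2 scale. By the probe set without a suffix its range was 0.75, below the 1.05 of Cpt1a. The genes nearest to the pattern of the brightest probe set among 9622 compared, by the distance of the 4 centred log2 signals, were Kpna1 at 0.029, Mrpl50 at 0.054 and Cyp20a1 at 0.067. With 4 points such closeness is a description only.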
